A study of Zea mays with 12 samples.

Results

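Maize roots short of phosphorus (P) were set directly against maize roots short of potassium (K). The comparison holds 6 of the 12 RNA sequencing libraries of the series, 3 from phosphorus deficiency and 3 from potassium deficiency, chosen by their treatment labels. All plants were DengHai605, entered as an inbred line, and roots were taken at 40 days of age. The other 6 libraries are 3 from nitrogen deficiency and 3 from a control with normal nitrogen, phosphorus and potassium. Both of these groups enter 1 alternative fit only, and the control values are printed beside the others as a description. The P group therefore had no stated shortage of K, and the K group no stated shortage of P. The 3 libraries of a group are numbered 1_3, 4_6 and 7_9. Nothing given says whether these are separate plants, so the p-values measure the spread between these libraries. Of 37385 genes listed, 23486 had at least 0.5 FPKM, a fragment count scaled to transcript length and library size, in at least 3 of the 6 libraries and were tested.

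Both nutrients are taken up by the root from a dilute soil solution, but by different proteins. Phosphate enters through proton-coupled PHT1 transporters, proteins with an SPX domain report the phosphate status of the cell, and starved roots are known for releasing phosphate from organic esters with acid phosphatases and phosphodiesterases and for carbon flow through phosphoenolpyruvate carboxylase. Potassium enters through high-affinity HAK transporters and AKT channels, which are known in Arabidopsis and rice to be switched on by calcineurin B-like calcium sensors (CBL) and the protein kinases that bind them (CIPK).

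Whole reads per library, recovered from the deposited group means, numbered 17231589 to 18397287 in K deficiency and 15753214 to 17200441 in P deficiency. Correlation of log2(FPKM + 1) across genes was 0.957 to 0.975 between libraries of one group and 0.923 to 0.955 between the groups. P deficiency replicate 4_6 stood apart in one respect: without it the number of genes that passed the test went up, from 1642 to 2412. Markers of root tissue summed to 89.1 to 126 FPKM in P deficiency and 134 to 143 FPKM in K deficiency, over 5 genes that were all detected. The gene rth3, a COBRA-like protein needed for root hairs, read 50.7, 68.7 and 51.9 FPKM in P deficiency and 71.0, 96.2 and 99.4 FPKM in K deficiency, which missed the threshold (adjusted p = 0.088). Leaf markers summed to at most 23.5 FPKM over 21 genes in each of the 6 libraries, and seed markers to at most 4.78 FPKM over 30 genes, of which 21 were listed at 0 in all P libraries and 23 in all K libraries. In bulk roots fewer cells of a type and less RNA per cell cannot be told apart.

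Between the deficiencies 1642 of 23486 genes differed at an adjusted p under 0.05 (limma on log2(FPKM + 1), Benjamini-Hochberg over all tested genes), which is 6.99%. Of these, 578 genes (2.46% of those tested) were higher and 1064 (4.53%) were lower in P than in K deficiency. None of the called genes had libraries of the groups that overlapped. The same held for genes that missed the threshold, such as rth3, so it is no separate support for the calls. The share of all tested genes without overlap is not given here. A log2 difference of at least 1 was reached by 285 of the higher and 494 of the lower genes, and one of at least 2 by 45 and 69. The median ratio of mean FPKM was 2.22 in either direction. The median difference over all tested genes was 0.01 on the log2 scale.

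**Figure D1:**
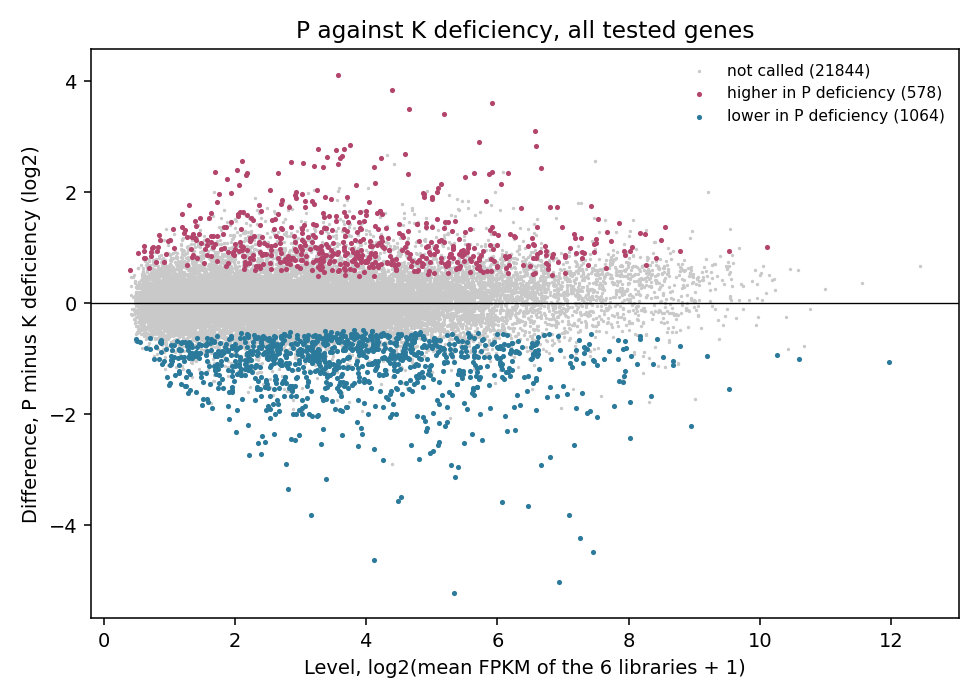
Each dot is 1 of the 23486 tested genes, placed by its level (horizontal axis, log2 of the mean FPKM of the 6 libraries plus 1) and by the difference P minus K deficiency (vertical axis, log2). The 578 genes higher in P deficiency lie above the line at 0 and the 1064 lower genes below it, and grey dots are genes that did not pass the test.

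The control libraries show where these genes stand with full supply. Of the 578 genes higher in P deficiency, the control mean lay below both deficient means for 257 (44.5%), between them for 305 (52.8%) and above both for 16 (2.77%). Of the 1064 genes lower in P deficiency, the control mean lay above both for 383 (36.0%), between them for 555 (52.2%) and below both for 126 (11.8%). These counts describe means and carry no test of either deficiency against the control.

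The calls depended on which library was left out, and only leaving out P deficiency replicate 4_6 raised their number, to 2412. With 1 library left out, the count was 307 when that was K deficiency replicate 7_9, 375 for P deficiency replicate 7_9, 492 for K deficiency replicate 1_3, 661 for P deficiency replicate 1_3 and 709 for K deficiency replicate 4_6. Of 101 named genes that passed with all 6 libraries, 41 also passed at the same threshold in every alternative fit, which is what is meant below by passing under every alternative. A further 59 missed the threshold without at least 1 library, most often K deficiency replicate 7_9. Counts within gene lists moved likewise: of 53 such counts above 0, leaving out a K library lowered 49 (1_3), 44 (4_6) and 50 (7_9). Leaving out a P library lowered 45 (1_3), 7 (4_6) and 48 (7_9), and the loss of 4_6 raised 25.

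The genes with the largest deficits in P deficiency were chosen to have no overlap between P and K libraries. Several were more abundant still in the control. LOC100284418, a member of the ubiquitin family, read 0.597, 1.053 and 1.42 FPKM in P deficiency, 41.9, 97.7 and 93.5 FPKM in K deficiency and 0.691, 4.29 and 0.791 FPKM in the control. It was therefore high in K deficiency and low in both other groups, with a mean 75.9-fold higher in K than in P deficiency (log2 difference P minus K -5.21 ± 0.34 SE, adjusted p = 0.0019). K deficiency also stood above both other groups in LOC100277849, a hypothetical protein, at 16.8, 14.3 and 11.97 FPKM in P deficiency, 209, 332 and 329 FPKM in K deficiency and 7.08, 32.9 and 25.3 FPKM in the control (log2 difference -4.23 ± 0.22 SE, adjusted p = 0.00086). So it did in LOC100277313, a zinc finger protein, at 2.51, 3.11 and 2.28 FPKM against 41.5, 57.8 and 25.6 FPKM in K deficiency (log2 difference -3.49 ± 0.28 SE, adjusted p = 0.0028).

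The proline-rich protein LOC100272479 had the other order, with the control near K deficiency. It read 15.4, 12.8 and 13.9 FPKM in P deficiency, 295, 289 and 426 FPKM in K deficiency and 453, 366 and 226 FPKM in the control. The mean was 24.0-fold higher in K than in P deficiency (log2 difference -4.47 ± 0.18 SE, adjusted p = 0.0003). LOC100281190, a stachyose synthase, which makes a raffinose-type sugar, read 4.92, 8.06 and 9.37 FPKM in P deficiency, 60.0, 69.7 and 86.5 FPKM in K deficiency and 296, 200 and 192 FPKM in the control (log2 difference -3.14 ± 0.24 SE, adjusted p = 0.0027). Its 3 groups did not overlap, and the level stepped down from the control through K to P deficiency. The same order was found for the means of the protein phosphatase 2C Orphan337 at 3.74 FPKM in P deficiency and 32.4 FPKM in K deficiency, the beta-carotene hydroxylase LOC100281693 at 5.75 and 47.9 FPKM, the lipid binding protein LOC100283128 at 8.61 and 74.3 FPKM, the farnesylated protein umc2310 at 26.9 and 195 FPKM, and the uncharacterized LOC100217087 at 2.66 and 40.4 FPKM. Their adjusted p lay between 0.0024 and 0.0062.

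Of the 15 genes on the lower side, 13 passed under every alternative, among them the hypothetical protein LOC103644294 with 8.70 FPKM in P and 67.8 FPKM in K deficiency. The other two did not. The hypothetical protein pco110563 read 11.2, 49.4 and 6.93 FPKM in P deficiency against 308, 161 and 273 FPKM in K deficiency and 1937, 716 and 1486 FPKM in the control (adjusted p = 0.022). It missed the threshold without K deficiency replicate 1_3 (0.073), K deficiency replicate 7_9 (0.080), P deficiency replicate 1_3 (0.062) and P deficiency replicate 7_9 (0.060). The uncharacterized LOC100274774, at means of 7.90 and 53.0 FPKM, missed it without K deficiency replicate 1_3 (0.056) and 7_9 (0.062).

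The genes with the largest excess in P deficiency included regulators and enzymes of carbon and lipid metabolism. PPCK4, the kinase that phosphorylates phosphoenolpyruvate carboxylase and makes it less sensitive to malate, read 213, 121 and 165 FPKM in P deficiency, 30.7, 11.6 and 28.9 FPKM in K deficiency and 38.8, 21.4 and 30.7 FPKM in the control. K deficiency and the control overlapped and P deficiency stood above both, at a mean 7.001-fold that of K deficiency (log2 difference 2.83 ± 0.38 SE, adjusted p = 0.011). RADIALIS, a MYB-domain protein named for a flower symmetry factor of snapdragon, read 23.2, 21.3 and 23.6 FPKM in P deficiency, 3.68, 2.26 and 1.31 FPKM in K deficiency and 0.421, 0.787 and 0.560 FPKM in the control (log2 difference 2.85 ± 0.25 SE, adjusted p = 0.0033). ZCN17, of the protein family of FLOWERING LOCUS T in Arabidopsis, read 14.8, 30.2 and 14.7 FPKM in P deficiency and 2.80, 2.54 and 1.51 FPKM in K deficiency (log2 difference 2.61 ± 0.30 SE, adjusted p = 0.0069). In the control it read 1.21, 2.67 and 4.51 FPKM, which overlapped K deficiency.

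In much of the rest of this set 1 control library was as high as P deficiency. The early nodulin 93 gene LOC103638099 read 238, 98.3 and 175 FPKM in P deficiency, 11.02, 25.3 and 19.6 FPKM in K deficiency and 23.6, 130 and 23.6 FPKM in the control (log2 difference 3.11 ± 0.39 SE, adjusted p = 0.0085). cl27608_1, a stearoyl-acyl-carrier-protein desaturase that places the first double bond in plastid fatty acids, read 141, 50.4 and 85.0 FPKM against 7.25, 13.7 and 11.6 FPKM in K deficiency, with 12.8, 69.2 and 15.7 FPKM in the control (log2 difference 2.90 ± 0.38 SE, adjusted p = 0.010). LOC100193279, a lactate or malate dehydrogenase, read 20.1, 29.1 and 65.4 FPKM in P deficiency, 0.221, 3.99 and 1.36 FPKM in K deficiency and 3.18, 37.2 and 5.64 FPKM in the control (log2 difference 3.84 ± 0.58 SE, adjusted p = 0.016). Replicate 4_6 was the highest of the 3 control libraries in 12 of the 15 genes on the higher side, in 206 of all 578 higher genes (35.6%) and in 5572 of all tested genes (23.7%). The same library was the lowest of the 3 in 9 of the 15 genes on the lower side, in 499 of all 1064 lower genes (46.9%) and in 11124 of all tested genes (47.4%). For LOC103638099, cl27608_1 and LOC100193279 the place relative to the control therefore rests on which control library is read. It did not for PPCK4, RADIALIS and ZCN17, whose control libraries all lay below P deficiency. Why control replicate 4_6 stood apart was not tested. Neither the choice of the 15 genes on each side nor their P against K difference uses the control.

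The AP2-type transcription factor LOC100193143, at means of 28.3 FPKM in P and 4.44 FPKM in K deficiency, and the uncharacterized LOC100193182 and LOC100276153 passed under every alternative, as did PPCK4, RADIALIS, ZCN17, LOC103638099 and cl27608_1. Without K deficiency replicate 7_9 the threshold was missed by 7 of the 15, namely LOC100193279 (adjusted p = 0.064), the hypothetical proteins LOC100274623 (0.056) and umc1290 (0.070), LOC100193480 (0.064), the wound-induced protein LOC100280811 (0.064), the lipid-transfer type protein gpm644 (0.075) and the cortical cell-delineating protein LOC100283104 (0.052). Of these, LOC100193480, gpm644, umc1290 and LOC100280811 also missed it without K deficiency replicate 1_3, at 0.051 to 0.066. gpm644 did so without K deficiency replicate 4_6 (0.067), umc1290 without P deficiency replicate 7_9 (0.056), and LOC100280811 without P deficiency replicates 1_3 (0.053) and 7_9 (0.062).

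**Figure D2:**
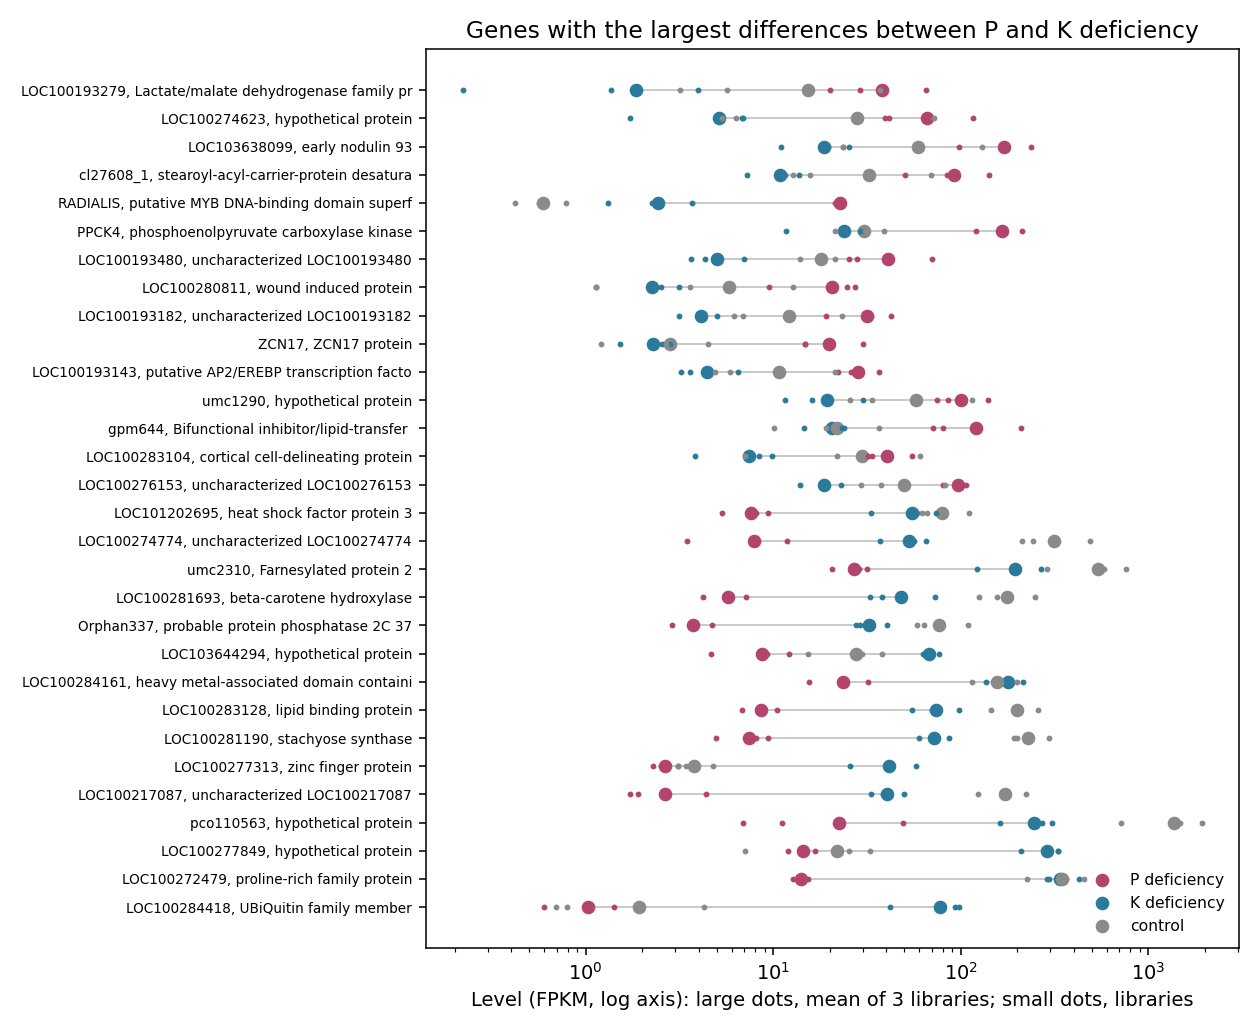
Levels of the 15 genes furthest above and the 15 furthest below K deficiency in P deficiency, on a log axis of FPKM; large dots are means of 3 libraries, small dots the libraries, and the grey bar joins the P and K means. The rule for choosing these 30 genes required P and K libraries that do not overlap. The control sits beyond K deficiency for most of the genes that are low in P deficiency.

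With all 6 libraries several genes listed for phosphate scavenging were higher in P deficiency, while no gene described as a phosphate transporter passed. Among 34 tested genes for phosphate scavenging, 4 were higher (11.8%, against 2.46% of all genes) and none was lower, with a median log2 difference of 0.21. The median for phosphate transport and signalling was close, at 0.17. Without P deficiency replicate 1_3 no scavenging gene passed, and 2 genes for transport and signalling were higher. LOC100383215, the glycerophosphodiester phosphodiesterase GDPD2, which splits the head groups left over from phospholipids, read 557, 438 and 491 FPKM in P deficiency, 251, 176 and 253 FPKM in K deficiency and 193, 196 and 161 FPKM in the control. All P libraries were above all others, at 2.18-fold the K mean (log2 difference 1.14 ± 0.20 SE, adjusted p = 0.024). LOC100217133, a purple acid phosphatase, read 44.3, 42.9 and 58.5 FPKM in P deficiency, 26.6, 17.1 and 22.5 FPKM in K deficiency and 9.90, 14.4 and 21.9 FPKM in the control (log2 difference 1.11 ± 0.20 SE, adjusted p = 0.025).

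A pair of genes described as acid phosphatase or vanadium-dependent haloperoxidase completed the called members. They are on the list by that description, and whether they release phosphate was not tested. LOC100273328 read 50.8, 41.9 and 47.1 FPKM in P deficiency against 33.7, 25.3 and 24.0 FPKM in K deficiency (adjusted p = 0.042). LOC100285275 read 18.3, 15.4 and 14.2 FPKM against 8.47, 6.19 and 9.97 FPKM (adjusted p = 0.036, and 0.054 with the replicate labels as a block). K deficiency was above the control in both, with control libraries at 11.7, 19.8 and 15.02 FPKM and at 4.52, 4.84 and 4.97 FPKM. All 4 scavenging genes missed the threshold when K deficiency replicate 4_6 or 7_9 or P deficiency replicate 1_3 or 7_9 was left out, at adjusted p of 0.055 to 0.131, LOC100383215 and LOC100285275 also without K deficiency replicate 1_3 (0.054 and 0.088), and LOC100285275 without P deficiency replicate 4_6 (0.051).

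Of 17 tested genes for phosphate transport and signalling, 1 was lower (5.88%, against 4.53% of all genes) and none was higher in P deficiency, and the median log2 difference was 0.17. Without P deficiency replicate 1_3 this turned round, with 2 higher and none lower, and without P deficiency replicate 4_6 2 were lower and none higher. The lower gene, LOC100501893, encodes a membrane protein with an SPX domain and read 23.9, 22.4 and 19.2 FPKM in P deficiency, 51.7, 35.9 and 41.4 FPKM in K deficiency and 42.9, 29.0 and 33.6 FPKM in the control (log2 difference -0.94 ± 0.17 SE, adjusted p = 0.025). It missed the threshold without K deficiency replicate 1_3 (0.060), K deficiency replicate 7_9 (0.083), P deficiency replicate 1_3 (0.051) or P deficiency replicate 7_9 (0.086). LOC100502494, phosphate transporter protein 9, had the next smallest p, with 11.4, 17.9 and 13.4 FPKM in P deficiency, 9.65, 4.85 and 7.19 FPKM in K deficiency and 2.17, 1.46 and 4.72 FPKM in the control. The P and K libraries did not overlap, but the difference of 0.91 ± 0.25 SE missed the threshold (adjusted p = 0.074).

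The other phosphate carriers are given here outside the rule for naming genes, after their values were seen. LOC732717, inorganic phosphate transporter 3, read 510, 344 and 439 FPKM in P deficiency, 559, 275 and 449 FPKM in K deficiency and 95.8, 130 and 149 FPKM in the control. P and K deficiency overlapped, with a log2 difference of 0.05 ± 0.29 SE (adjusted p = 0.92) that was below 0 without K deficiency replicate 4_6 or P deficiency replicate 1_3, and all 6 deficient libraries lay above the control. pht1-6, inorganic phosphate transporter 6, read 34.2, 502 and 300 FPKM in P deficiency and 32.9, 147 and 43.1 FPKM in K deficiency, so its spread within groups was wider than the difference of 1.53 ± 1.01 SE (adjusted p = 0.35). pht1 and pht2, phosphate transporter proteins 1 and 2, had log2 differences of -0.14 ± 0.17 SE and 0.17 ± 0.21 SE, neither of which passed. Members of the PHT1 family resemble each other, and reads could be split between them.

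**Figure D3:**
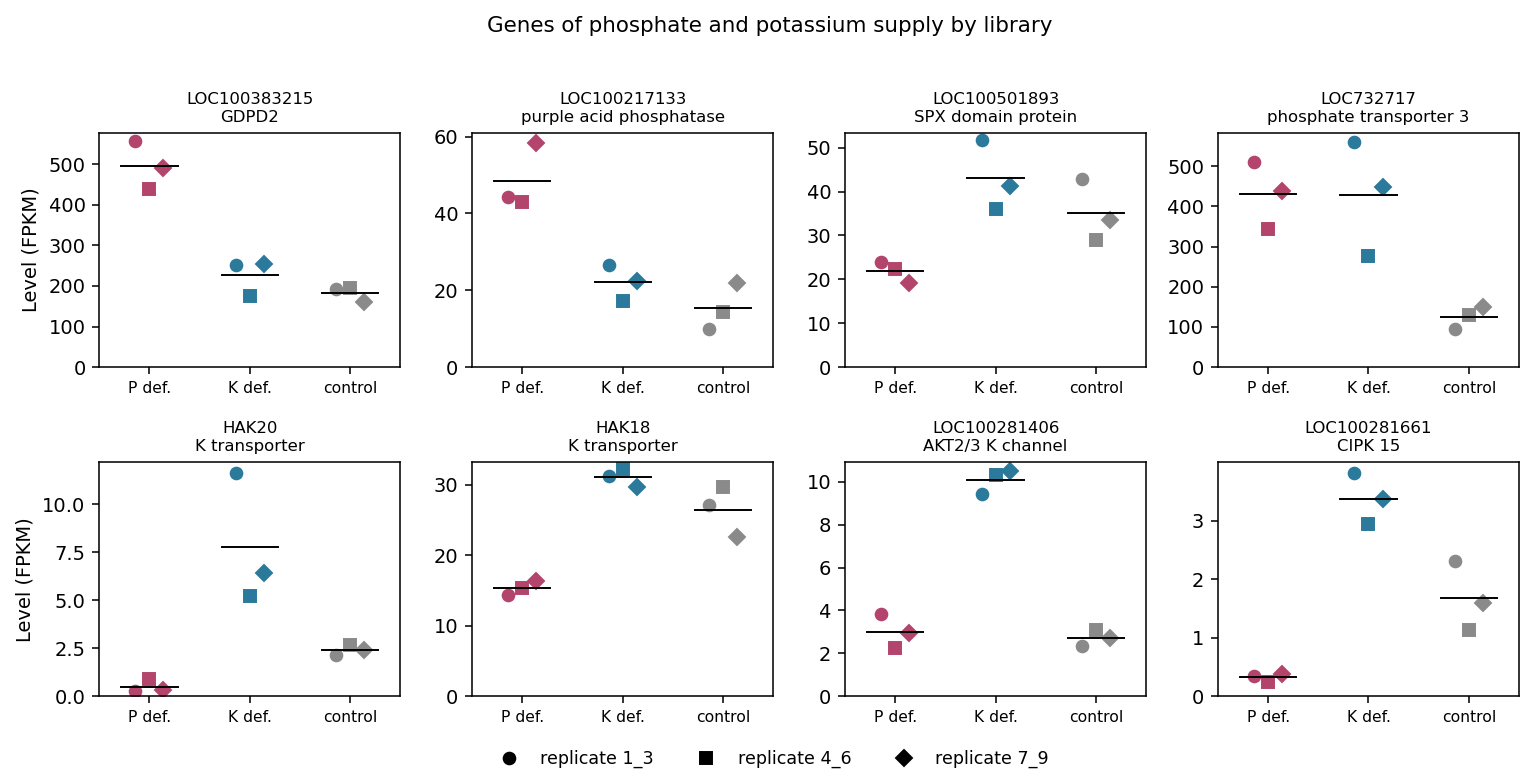
Level in FPKM of 8 genes in each library of P deficiency, K deficiency and the control; symbols mark the replicate label and the bar is the mean of 3 libraries. GDPD2 and the purple acid phosphatase are highest in P deficiency, phosphate transporter 3 overlaps between the deficiencies, and the 3 potassium carriers and the CIPK are lowest or near the control in P deficiency.

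More genes that take up or move potassium were lower than higher in P deficiency. Of 26 tested members, 5 were lower (19.2%, against 4.53% of all genes) and 2 were higher (7.69%, against 2.46%), and the median log2 difference was -0.40. HAK20, described as a potassium transporter, read 0.294, 0.885 and 0.306 FPKM in P deficiency, 11.6, 5.22 and 6.44 FPKM in K deficiency and 2.14, 2.67 and 2.43 FPKM in the control. The 3 groups did not overlap and the control lay between the deficiencies, with K deficiency 15.7-fold above P deficiency (log2 difference -2.51 ± 0.29 SE, adjusted p = 0.0071). LOC100281406, an AKT2/3-type channel that lets potassium pass in either direction in Arabidopsis, read 3.82, 2.23 and 2.93 FPKM in P deficiency, 9.41, 10.3 and 10.5 FPKM in K deficiency and 2.33, 3.09 and 2.74 FPKM in the control (log2 difference -1.49 ± 0.17 SE, adjusted p = 0.0068). P deficiency and the control overlapped, and K deficiency stood above both.

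HAK18, a high-affinity transporter, had a different order. It read 14.3, 15.3 and 16.4 FPKM in P deficiency, 31.2, 32.3 and 29.7 FPKM in K deficiency and 27.1, 29.6 and 22.5 FPKM in the control, so P deficiency stood below the others (log2 difference -0.97 ± 0.11 SE, adjusted p = 0.0072). HAK17, of the same family, read 1.44, 1.77 and 2.28 FPKM in P deficiency, 5.90, 4.66 and 5.39 FPKM in K deficiency and 2.89, 3.45 and 3.22 FPKM in the control (log2 difference -1.16 ± 0.16 SE, adjusted p = 0.013). LOC100284342, a calcium-activated outward-rectifying channel, read 1.24, 1.93 and 0.582 FPKM in P deficiency and 9.72, 5.64 and 4.50 FPKM in K deficiency (log2 difference -1.75 ± 0.31 SE, adjusted p = 0.025). HAK20, LOC100281406 and HAK18 passed under every alternative. HAK17 missed the threshold without K deficiency replicate 7_9 (0.057), and LOC100284342 missed it without any single library other than P deficiency replicate 4_6, at 0.055 to 0.074.

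The 2 higher members were HAK21 and a channel beta subunit. All K libraries of HAK21 lay below the minimum FPKM for testing, so HAK21 was tested through its P libraries alone. Its K values rest on few reads. With a minimum of 2 FPKM in 3 libraries HAK21 was not tested, and of 22 members 1 was higher and 5 were lower. HAK21 was scarce throughout, at 1.19, 1.51 and 2.46 FPKM in P deficiency and 0.382, 0.253 and 0.0434 FPKM in K deficiency, and one control library reached 2.31 FPKM (log2 difference 1.13 ± 0.21 SE, adjusted p = 0.029). The beta subunit si614064h02 read 69.3, 69.8 and 49.8 FPKM in P deficiency against 31.9, 33.8 and 36.8 FPKM in K deficiency (log2 difference 0.85 ± 0.16 SE, adjusted p = 0.030). With the replicate labels as a block neither passed, at adjusted p of 0.059 and 0.057. HAK21 also missed it with all 12 libraries in the fit (0.052). Both missed the threshold without any 1 of the K deficiency libraries (0.064 to 0.096), HAK21 also without P deficiency replicate 7_9 (0.081), and si614064h02 without P deficiency replicate 1_3 (0.079).

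Among the CBL sensors and CIPK kinases, too, more members were lower than higher. Of 34 tested members, 7 were lower (20.6%) and 2 were higher (5.88%) in P deficiency, against 4.53% and 2.46% of all genes. The median log2 difference was -0.30, and 27 of the 34 had a difference below 0. LOC100281661, a CIPK described as number 15, read 0.347, 0.246 and 0.374 FPKM in P deficiency and 3.82, 2.94 and 3.36 FPKM in K deficiency. In the control it read 2.31, 1.13 and 1.59 FPKM, and the groups did not overlap (log2 difference -1.72 ± 0.14 SE, adjusted p = 0.0028). All its P libraries lay below the minimum FPKM for testing, so the gene was tested through its K libraries alone. Its P values rest on few reads. LOC100381968, a more abundant CIPK, read 19.6, 29.4 and 23.5 FPKM in P deficiency, 72.6, 83.1 and 62.1 FPKM in K deficiency and 72.7, 65.1 and 68.1 FPKM in the control (log2 difference -1.56 ± 0.18 SE, adjusted p = 0.0072). Here the control lay within the range of K deficiency.

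LOC107521948, another CIPK, read 0.651, 0.534 and 0.445 FPKM in P deficiency against 7.25, 2.58 and 4.81 FPKM in K deficiency (adjusted p = 0.018), and pco062034(27) read 12.4, 10.7 and 8.60 FPKM against 20.3, 23.6 and 23.6 FPKM (adjusted p = 0.016). Both missed the threshold without K deficiency replicate 7_9 (0.069 and 0.068) or P deficiency replicate 7_9 (0.065 and 0.054), and pco062034(27) also without K deficiency replicate 4_6 (0.051). The other lower members were LOC100285616, a calcineurin B-like protein, and the kinases LOC100193758 and LOC100281650, with K to P ratios of 1.59, 1.89 and 1.62. With the replicate labels as a block these 3 had adjusted p of 0.053, 0.051 and 0.062, and the higher kinases cl63836_1 and LOC100193569 had 0.054 and 0.077, which left 4 lower members and none higher. The same 3 and cl63836_1 missed the threshold without any single library other than P deficiency replicate 4_6 (0.060 to 0.139), and LOC100193569 without each library in turn (0.075 to 0.158). LOC100281661 and LOC100381968 passed without any single library. With K deficiency replicate 7_9 or P deficiency replicate 7_9 left out, 2 members were lower, with K deficiency replicate 4_6 left out 3 were, with either replicate 1_3 left out 4 were, and with P deficiency replicate 4_6 left out 9 were.

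Among 22 tested genes for membrane lipid remodelling, 3 phospholipases were lower in P deficiency (13.6%, against 4.53%) and none was higher. The list's median log2 difference was 0.06, on the other side of 0 from its called members. LOC100191939, phosphoinositide phospholipase C 2, which cuts a membrane phosphoinositide into signalling products, read 18.5, 13.7 and 14.1 FPKM in P deficiency, 35.3, 41.96 and 38.6 FPKM in K deficiency and 71.3, 49.7 and 42.8 FPKM in the control (log2 difference -1.28 ± 0.15 SE, adjusted p = 0.0072). It passed under every alternative, and its 3 groups did not overlap. The phospholipase D gene LOC100280155, at 22.5, 25.6 and 23.7 FPKM in P and 41.7, 42.03 and 37.8 FPKM in K deficiency, had an adjusted p of 0.018. The phospholipase C gene LOC100136827, at 6.14, 8.27 and 6.48 FPKM and 13.5, 11.5 and 11.7 FPKM, had 0.033, and 0.062 with the replicate labels as a block. Both missed the threshold without any single library other than P deficiency replicate 4_6, at 0.053 to 0.109.

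Several genes for the uptake and assimilation of nitrogen were lower in P than in K deficiency. Of 40 tested transporters of nitrate, ammonium and peptides, 8 were lower (20%, against 4.53%) and 1 was higher (2.5%, against 2.46%), with a median log2 difference of -0.33. nrt2.2, a high-affinity nitrate transporter, read 0.421, 0.798 and 0.683 FPKM in P deficiency, 4.65, 3.19 and 2.78 FPKM in K deficiency and 1.55, 1.46 and 1.85 FPKM in the control (log2 difference -1.46 ± 0.19 SE, adjusted p = 0.011). The control lay between the deficiencies without overlap. LOC100384152, of the NRT1/PTR family, read 4.47, 4.95 and 4.34 FPKM in P deficiency against 12.4, 10.9 and 19.5 FPKM in K deficiency (log2 difference -1.41 ± 0.21 SE, adjusted p = 0.015), and missed the threshold without P deficiency replicate 7_9 (0.060).

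Chosen after their values were seen, nrt2, a close copy of nrt2.2 that may share its reads, and NAR2.2, a partner protein that NRT2 transporters need, were also among the lower genes. NAR2.2 read 5.46, 5.85 and 13.5 FPKM in P deficiency, 27.4, 31.7 and 41.9 FPKM in K deficiency and 70.2, 46.5 and 34.5 FPKM in the control (log2 difference -1.98 ± 0.33 SE, adjusted p = 0.020). NAR2.2 missed the threshold without any 1 of the K deficiency libraries or P deficiency replicate 1_3 (0.053 to 0.078), and nrt2 without K deficiency replicates 1_3 (0.054) or 7_9 (0.071) or P deficiency replicate 7_9 (0.065). Of the 12 tested genes of nitrogen assimilation, 2 were lower (16.7%) and none was higher. gln2, a glutamine synthetase, which binds ammonium to glutamate, read 7.53, 8.51 and 5.84 FPKM in P deficiency, 31.4, 24.6 and 31.2 FPKM in K deficiency and 51.5, 38.3 and 35.9 FPKM in the control (log2 difference -1.86 ± 0.17 SE, adjusted p = 0.0036). fgs1, the ferredoxin-dependent glutamate synthase of the next step, read 15.9, 20.4 and 15.9 FPKM in P deficiency, 46.7, 44.3 and 39.9 FPKM in K deficiency and 50.7, 38.9 and 34.1 FPKM in the control (log2 difference -1.28 ± 0.14 SE, adjusted p = 0.0062). gln2, fgs1 and nrt2.2 passed under every alternative. For the transporters as a list, 2 to 3 members were lower without any single library other than P deficiency replicate 4_6, without which 8 were.

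Among genes for metals, 9 of 46 tested members were lower in P deficiency (19.6%, against 4.53%) and none was higher. LOC100284161, a protein with a heavy metal-associated domain, read 22.9, 32.0 and 15.4 FPKM in P deficiency, 214, 137 and 184 FPKM in K deficiency and 199, 115 and 156 FPKM in the control, so that K deficiency and the control overlapped (log2 difference -2.91 ± 0.28 SE, adjusted p = 0.0040). umc1796, named zinc transporter 4, read 21.8, 15.6 and 16.5 FPKM in P deficiency, 70.0, 58.2 and 42.3 FPKM in K deficiency and 179, 137 and 119 FPKM in the control (log2 difference -1.60 ± 0.22 SE, adjusted p = 0.011). Other genes with the same description could share its reads. Chosen after its values were seen, mtl1, a metallothionein and thus a small metal-binding protein, had 2394, 2706 and 2714 FPKM in P and 5089, 5606 and 5611 FPKM in K deficiency (adjusted p = 0.036, and 0.060 with the replicate labels as a block). Its call also ended without the filter on low values (0.235) and without any single library other than P deficiency replicate 4_6 (0.062 to 0.130). LOC100284161 passed under every alternative, umc1796 had an adjusted p of 0.050 without P deficiency replicate 7_9, and 1 to 5 list members were lower without any single library other than P deficiency replicate 4_6, and 10 without that one. The block left 6 lower and 1 higher in place of 9 and none. In sulfate transport 1 of 9 tested genes was lower, LOC100382058 at 45.4, 22.5 and 27.5 FPKM in P and 59.8, 70.1 and 79.0 FPKM in K deficiency (adjusted p = 0.044, and 0.066 with the block). It missed the threshold without any single library other than P deficiency replicate 1_3, at 0.057 to 0.133.

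The route from phenylalanine to lignin, the phenolic polymer of secondary walls, had called members at several steps, most of them lower in P than in K deficiency. Of 48 tested members, 11 were lower (22.9%, against 4.53%) and 2 were higher (4.17%, against 2.46%), with a median log2 difference of -0.18. cad, the cinnamyl alcohol dehydrogenase of the last reduction step, read 237, 272 and 268 FPKM in P deficiency, 582, 526 and 566 FPKM in K deficiency and 284, 295 and 335 FPKM in the control (log2 difference -1.11 ± 0.15 SE, adjusted p = 0.010). K deficiency stood alone above the other groups. pco061287(609), a laccase, an oxidase of the type that couples lignin units, read 29.9, 28.8 and 29.3 FPKM in P deficiency, 55.6, 54.8 and 64.5 FPKM in K deficiency and 163, 113 and 119 FPKM in the control (log2 difference -0.96 ± 0.12 SE, adjusted p = 0.0082). Here the control was highest.

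The remaining lower members are named after their values were seen, to show the steps covered. Phenylalanine ammonia-lyase, the entry enzyme, gave 4 of them. pal3 read 349, 428 and 426 FPKM in P deficiency against 803, 769 and 737 FPKM in K deficiency (adjusted p = 0.023), and LOC100273579, LOC100281042 and LOC100285115 had K to P ratios of 2.0, 2.91 and 1.63. The cinnamoyl-CoA reductases cncr1 and cncr2, the coumarate-CoA ligase pco063262 and the caffeoyl-CoA methyltransferases CCOAOMT2 and LOC107282093 completed the list. cncr1 read 156, 179 and 201 FPKM in P deficiency and 378, 359 and 408 FPKM in K deficiency (adjusted p = 0.013). The ammonia-lyases and the methyltransferases are families of near-identical copies, and reads could be split between them. With the replicate labels as a block cncr2 (0.058), pco063262 (0.051), LOC107282093 (0.063) and LOC100285115 (0.054) missed the threshold. The higher genes were a cinnamate hydroxylase gene, LOC100284998, at 4.63, 7.42 and 22.7 FPKM against 0.965, 1.02 and 0.447 FPKM, and LOC100273263, of the cinnamyl alcohol dehydrogenase family, with adjusted p of 0.051 and 0.054 under the block. LOC100284998 missed the threshold without any 1 of the K deficiency libraries (0.072 to 0.104), and LOC100273263 without K deficiency replicates 4_6 or 7_9 or P deficiency replicates 1_3 or 7_9 (0.063 to 0.103) and with all 12 libraries in the fit (0.099). The laccase passed under every alternative, cad missed the threshold without K deficiency replicate 7_9 (0.056) and P deficiency replicate 7_9 (0.052), pal3 without any single library other than P deficiency replicate 4_6 (0.055 to 0.081), and cncr1 without K deficiency replicate 7_9 (0.061). The other 7 lower members each missed it without at least K deficiency replicates 1_3 and 7_9 and P deficiency replicate 7_9 (0.053 to 0.137). The lower members numbered 1 without K deficiency replicate 7_9, 3 without K deficiency replicate 1_3 or P deficiency replicate 7_9, 5 without K deficiency replicate 4_6, 6 without P deficiency replicate 1_3 and 13 without P deficiency replicate 4_6.

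**Figure D4:**
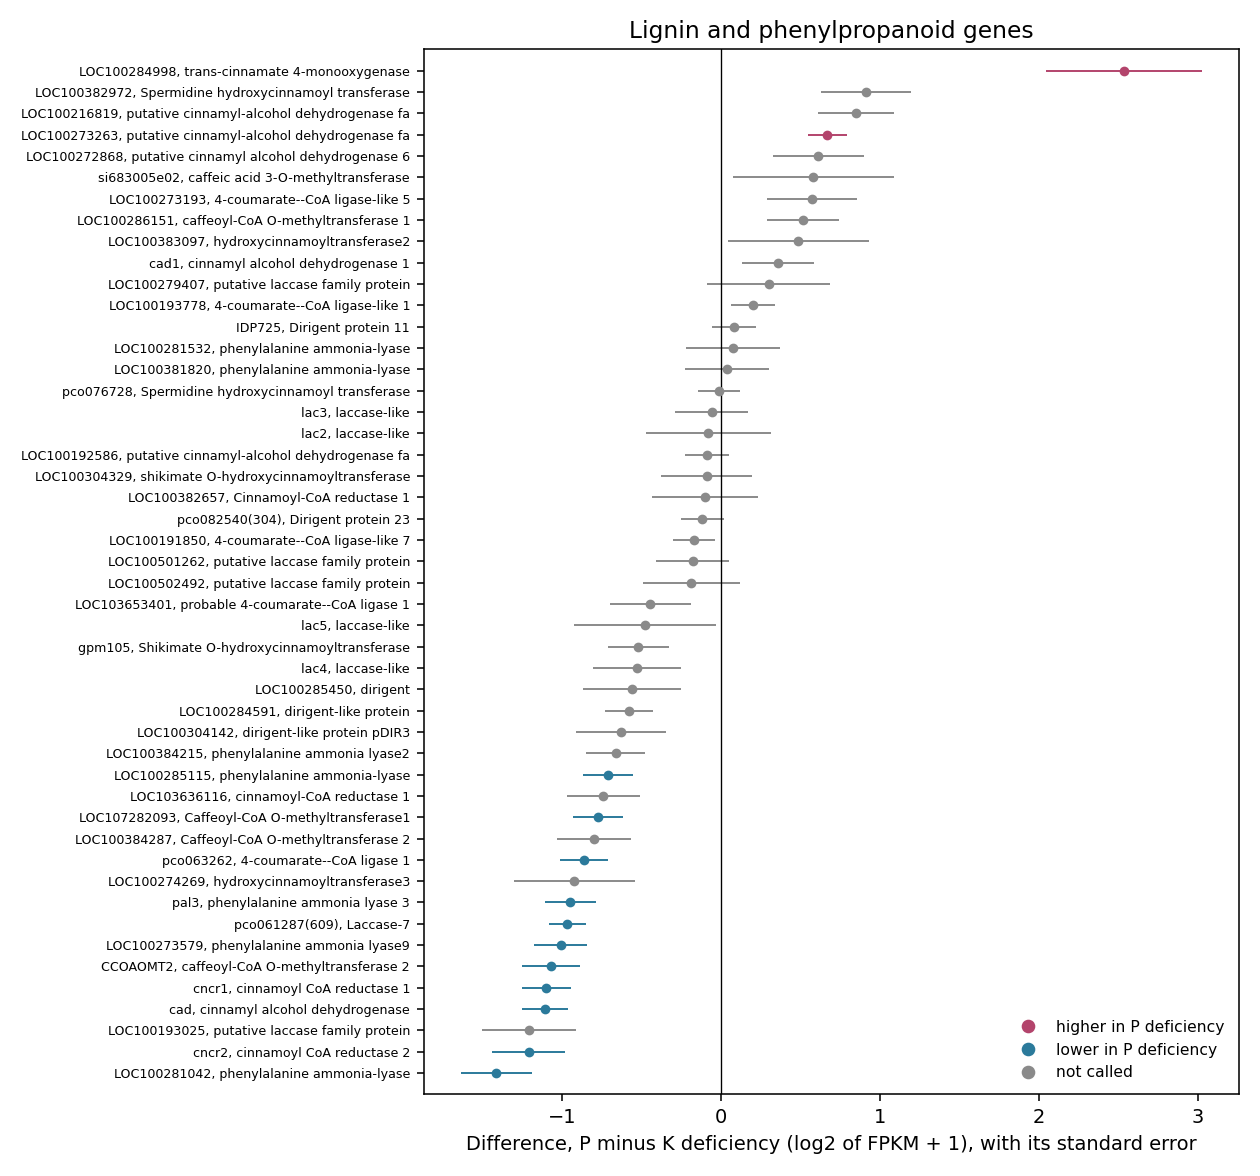
Difference between P and K deficiency (log2 of FPKM plus 1, with its standard error) for each of the 48 tested lignin and phenylpropanoid genes. The 11 genes that passed as lower lie between -1.41 and -0.71, the 2 that passed as higher at 0.67 and 2.54, and grey points did not pass.

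Flavonoid genes, a side branch of the same route, had 5 lower and 1 higher of 45 tested members (11.1% and 2.22%, against 4.53% and 2.46%). LOC100280082, a flavonol sulfotransferase, read 16.5, 16.4 and 14.1 FPKM in P deficiency, 75.6, 98.8 and 101 FPKM in K deficiency and 20.1, 24.7 and 27.03 FPKM in the control (log2 difference -2.47 ± 0.15 SE, adjusted p = 0.0015). K deficiency stood far above both other groups. LOC100283001, a dihydroflavonol reductase of the path to anthocyanins, read 1.40, 1.61 and 1.96 FPKM in P deficiency, 6.17, 7.92 and 6.27 FPKM in K deficiency and 5.01, 3.78 and 4.24 FPKM in the control (log2 difference -1.55 ± 0.15 SE, adjusted p = 0.0044). Both passed under every alternative, while the list had 2 lower members without K deficiency replicate 1_3 or P deficiency replicate 7_9. Of 64 peroxidases, 5 were lower and 3 were higher (7.81% and 4.69%, against 4.53% and 2.46%). LOC100285056 read 57.4, 50.7 and 52.6 FPKM in P deficiency against 146, 127 and 142 FPKM in K deficiency (adjusted p = 0.0038), and pox2 read 48.0, 70.0 and 103 FPKM against 299, 275 and 302 FPKM (adjusted p = 0.0096, and 0.051 without K deficiency replicate 7_9).

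Cellulose synthases and aquaporins had median differences below 0, with no member that passed as lower among these 6 libraries. With all 12 libraries in the fit 5 genes of each list were lower, and with voom on the recovered reads 3 cellulose synthases and 2 aquaporins were. The 17 cellulose synthase genes had a median log2 difference of -0.50, with none lower and 1 higher, the glucan synthase LOC100281536 (adjusted p = 0.049, and 0.069 with the replicate labels as a block). cesa11 read 32.2, 68.6 and 48.6 FPKM in P deficiency and 134, 106 and 84.3 FPKM in K deficiency (adjusted p = 0.061). The 28 aquaporins, channels for water and small solutes, had a median of -0.54, with none lower and 1 higher, nip2b, at 17.3, 13.0 and 10.9 FPKM against 4.67, 3.53 and 6.15 FPKM (adjusted p = 0.021). pip2c read 90.5, 277 and 102 FPKM in P deficiency and 633, 397 and 411 FPKM in K deficiency (adjusted p = 0.054). In both of these genes P deficiency replicate 4_6 was the closest to K deficiency. Without that library 8 cellulose synthases and 11 aquaporins were lower. nip2b missed the threshold without K deficiency replicates 1_3 (0.066) or 4_6 (0.053) or P deficiency replicate 1_3 (0.052) and with all 12 libraries in the fit (0.107), and LOC100281536 without any single library other than P deficiency replicate 4_6 (0.068 to 0.128) and with all 12 libraries in the fit (0.092).

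Glycolysis and organic acid metabolism had more genes higher than lower in P deficiency. Of 83 tested members, 8 were higher (9.64%, against 2.46%) and 2 were lower (2.41%, against 4.53%), with a median log2 difference of 0.22. Beside PPCK4 and LOC100193279, which the rule named, the higher members were chosen after their values were seen. pep4, a phosphoenolpyruvate carboxylase, the class of enzyme on which PPCK4 acts, read 133, 115 and 126 FPKM in P deficiency, 78.7, 44.6 and 58.6 FPKM in K deficiency and 37.2, 40.0 and 49.2 FPKM in the control (log2 difference 1.06 ± 0.21 SE, adjusted p = 0.032). Its P libraries lay above all others, and it missed the threshold without K deficiency replicates 4_6 (0.070) or 7_9 (0.107) or P deficiency replicates 1_3 (0.082) or 7_9 (0.0998). LOC100384708, a further carboxylase, the phosphoglycerate mutase LOC100502385 and the pyruvate kinases LOC100191614, LOC100283899 and pco129562 had P to K ratios of 2.06, 2.28, 1.73, 2.12 and 1.70. These 5 each missed the threshold without K deficiency replicate 7_9 and P deficiency replicates 1_3 and 7_9 (0.052 to 0.142). For LOC100191614 it was also missed without K deficiency replicate 4_6 (0.071) and with all 12 libraries in the fit (0.080). All 8 passed with the replicate labels as a block.

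The lower members were mdh6 and me4. All P libraries of me4 lay below the minimum FPKM for testing, so me4 was tested through its K libraries alone. Its P values rest on few reads. With a minimum of 2 FPKM in 3 libraries me4 was not tested, and of 75 list members 9 were higher and 1 was lower. mdh6, a malate dehydrogenase, read 1.13, 2.04 and 2.36 FPKM in P deficiency against 6.23, 5.77 and 7.22 FPKM in K deficiency (adjusted p = 0.013, and 0.060 without K deficiency replicate 7_9). me4, a malic enzyme, read 0.122, 0.243 and 0.154 FPKM against 4.01, 0.876 and 2.85 FPKM (adjusted p = 0.047, and 0.060 with the block), while the control held 81.5, 47.0 and 37.3 FPKM. Both deficiencies thus had little of the me4 transcript, and its call ended without any single library other than K deficiency replicate 4_6 (0.064 to 0.137). With 1 K deficiency library left out, the higher members numbered 5 (replicate 1_3), 3 (replicate 4_6) and 1 (replicate 7_9). With 1 P deficiency library left out, they numbered 4 (replicate 1_3), 9 (replicate 4_6) and 2 (replicate 7_9).

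Of 67 tested sugar and starch genes, 3 were higher and 3 were lower (4.48% each), the lower share near the 4.53% of all genes and the higher above 2.46%. sus2, a sucrose synthase, which cleaves sucrose, read 8.72, 8.17 and 8.12 FPKM in P deficiency, 30.4, 24.9 and 32.2 FPKM in K deficiency and 165, 144 and 114 FPKM in the control (log2 difference -1.68 ± 0.13 SE, adjusted p = 0.0028). The 3 groups stood far apart in that order, and the call held under every alternative. LOC103639536, a sucrose transporter of the SUT1 type, read 2.14, 1.96 and 2.04 FPKM in P deficiency and 5.02, 7.64 and 8.51 FPKM in K deficiency (adjusted p = 0.013, and 0.051 without K or P deficiency replicate 7_9).

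**Figure D5:**
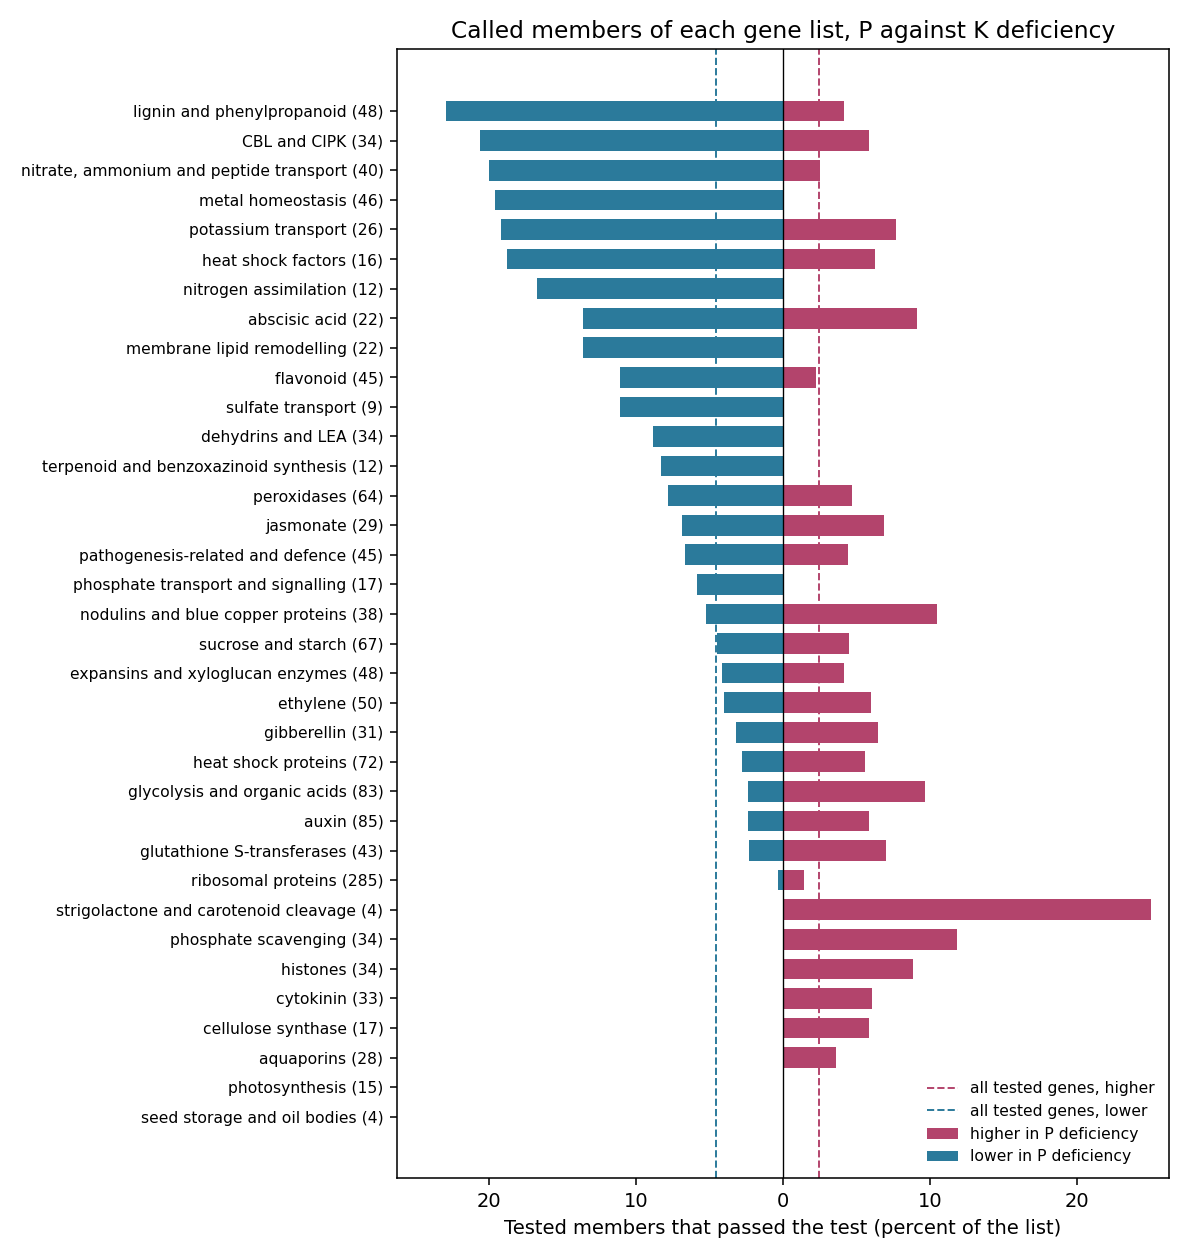
Share of the tested members of each gene list that passed as higher (right) or lower (left) in P deficiency, with the number tested in brackets; dashed lines mark the 2.46% and 4.53% of all tested genes. Lists of nitrogen, metal and potassium transport, CBL and CIPK and lignin reach 19.2% to 22.9% on the lower side, and the 25.0% of strigolactone genes on the higher side is 1 gene of 4.

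Of 16 heat shock factors, which switch on chaperone genes, 3 were lower and 1 was higher (18.8% and 6.25%, against 4.53% and 2.46% of all genes). LOC101202695, heat shock factor protein 3, read 9.36, 5.31 and 8.08 FPKM in P deficiency, 73.4, 33.1 and 58.5 FPKM in K deficiency and 111, 66.5 and 62.3 FPKM in the control (log2 difference -2.66 ± 0.31 SE, adjusted p = 0.0072). LOC100286298, heat shock factor protein 1, read 28.7, 29.7 and 18.4 FPKM against 144, 66.3 and 124 FPKM in K deficiency, with 349, 81.8 and 224 FPKM in the control (adjusted p = 0.017). In both genes P deficiency lay below K deficiency, and the K and control libraries overlapped. Of 72 heat shock proteins, 4 were higher (5.56%, against 2.46% of all genes) and 2 were lower (2.78%, against 4.53%), while 9 and 2 were with all 12 libraries in the fit and 11 and 3 of 73 with voom. HSP90-2 read 203, 212 and 184 FPKM in P deficiency, 97.8, 92.2 and 75.5 FPKM in K deficiency and 60.9, 67.9 and 112 FPKM in the control (log2 difference 1.17 ± 0.15 SE, adjusted p = 0.0092). The 70 kDa protein pco094428 read 11.6, 16.4 and 15.6 FPKM in P deficiency, 61.1, 38.1 and 54.4 FPKM in K deficiency and 279, 243 and 200 FPKM in the control (log2 difference -1.73 ± 0.21 SE, adjusted p = 0.0079). LOC101202695, HSP90-2 and pco094428 passed under every alternative, and LOC100286298 missed the threshold without K deficiency replicates 1_3 (0.056) or 7_9 (0.071) or P deficiency replicate 7_9 (0.060).

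In abscisic acid signalling, 3 of 22 members were lower and 2 were higher (13.6% and 9.09%, against 4.53% and 2.46%). LOC100284582, described as the transcription factor ABI5, read 13.9, 18.4 and 17.0 FPKM in P deficiency, 29.9, 36.8 and 41.5 FPKM in K deficiency and 67.6, 51.2 and 58.2 FPKM in the control (log2 difference -1.08 ± 0.17 SE, adjusted p = 0.017). LOC100216590, described as the receptor PYL5, had the opposite sign at 21.3, 11.3 and 22.5 FPKM in P deficiency, 5.24, 3.67 and 6.21 FPKM in K deficiency and 10.4, 10.9 and 9.20 FPKM in the control (log2 difference 1.65 ± 0.28 SE, adjusted p = 0.023). The factor that acts at the end of the pathway and a receptor at its start thus differed in opposite directions. LOC100284582 missed the threshold without K deficiency replicates 4_6 (0.052) or 7_9 (0.065) or P deficiency replicate 7_9 (0.060), and LOC100216590 without any single library other than P deficiency replicate 4_6 (0.061 to 0.076). Of 34 dehydrins and other late embryogenesis proteins, 3 were lower (8.82%, against 4.53%) and none was higher. LOC100281648, a seed maturation protein, read 0.274, 1.25 and 0.463 FPKM in P and 6.14, 2.59 and 7.80 FPKM in K deficiency (adjusted p = 0.029, and 0.058 with the replicate labels as a block), against 60.8, 18.9 and 33.5 FPKM in the control. Without K deficiency replicates 1_3 or 7_9 or P deficiency replicate 7_9 no member of that list passed, and without P deficiency replicate 1_3 this gene did not (0.078).

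Of 50 ethylene genes, 3 were higher (6%, against 2.46% of all genes) and 2 were lower (4%, against 4.53%), the latter share near that of all genes. acs7, an ACC synthase, which makes the precursor, read 46.6, 45.8 and 38.3 FPKM in P deficiency, 84.8, 105 and 106 FPKM in K deficiency and 44.2, 49.6 and 44.7 FPKM in the control (log2 difference -1.16 ± 0.15 SE, adjusted p = 0.0094). P deficiency overlapped the control, and K deficiency stood above both. cl955_1, an ACC oxidase of the last step, read 1.34, 1.93 and 1.51 FPKM against 5.25, 5.61 and 3.95 FPKM (adjusted p = 0.013). A far more abundant ACC oxidase, LOC100283053, chosen after its values were seen, had the opposite sign at 230, 176 and 228 FPKM against 68.5, 119 and 96.8 FPKM (adjusted p = 0.031, and 0.058 with the block, 0.065 to 0.101 without K deficiency replicates 1_3 or 7_9 or P deficiency replicates 1_3 or 7_9). LOC100283053 also missed the threshold with all 12 libraries in the fit (0.085) and without the filter on low values (0.052). acs7 missed the threshold without K deficiency replicate 7_9 (0.052), and cl955_1 without K deficiency replicate 1_3 (0.051) or P deficiency replicate 7_9 (0.056).

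Other hormone lists had few calls, and their shares are set against 2.46% of all genes higher and 4.53% lower. Auxin genes gave 5 higher and 2 lower of 85 (5.88% and 2.35%), led by the efflux carrier PINY at 13.5, 15.7 and 11.7 FPKM in P and 27.5, 23.8 and 28.3 FPKM in K deficiency (adjusted p = 0.018), and by umc1527, the repressor IAA4, at 48.6, 59.5 and 66.2 FPKM against 26.3, 31.5 and 30.2 FPKM (adjusted p = 0.018). None of the auxin genes passed without K deficiency replicate 1_3 or 7_9, both of these missed the threshold without P deficiency replicate 7_9 (0.065 and 0.066), and PINY did so without P deficiency replicate 1_3 (0.051). For gibberellin 2 of 31 were higher (6.45%) and 1 was lower (3.23%). LOC100284800, a gibberellin 20-oxidase that makes the precursors of active gibberellin, read 64.1, 56.1 and 67.7 FPKM in P deficiency against 28.4, 29.8 and 31.2 FPKM in K deficiency (log2 difference 1.04 ± 0.12 SE, adjusted p = 0.0073). LOC100283148, another gene with that description, had the opposite sign at 5.59, 6.03 and 8.57 FPKM against 17.0, 16.3 and 11.5 FPKM (adjusted p = 0.032, and 0.066 with the block). Copies of 1 enzyme thus differed in opposite directions. The first passed without any single library but not with all 12 libraries in the fit (0.068), and the second missed the threshold without each library in turn (0.051 to 0.092).

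For jasmonate 2 of 29 were higher and 2 were lower (6.90% each, against 2.46% and 4.53% of all genes). The jasmonate-induced protein LOC100282063 read 484, 397 and 407 FPKM in P deficiency against 167, 169 and 203 FPKM in K deficiency (adjusted p = 0.0090), and LOC100283794, of the same description, read 116, 125 and 153 FPKM against 375, 316 and 357 FPKM (adjusted p = 0.0066). Both passed under every alternative, in opposite directions. For cytokinin 2 of 33 were higher (6.06%), among them LOC100282611, an enzyme that attaches glucose to cytokinins, at 14.1, 11.03 and 19.6 FPKM against 4.44, 4.84 and 6.67 FPKM (adjusted p = 0.024), and none passed without any 1 library other than P deficiency replicate 4_6. In strigolactone synthesis, which serves a root signal to fungi, 1 of 4 was higher. This carotenoid cleavage dioxygenase, LOC100286117, read 7.13, 8.503 and 6.81 FPKM in P deficiency, 4.36, 3.13 and 3.12 FPKM in K deficiency and 1.30, 1.24 and 1.38 FPKM in the control (adjusted p = 0.024). CCD7, of the same path, read 20.4, 24.4 and 16.4 FPKM against 11.6, 12.9 and 7.74 FPKM in K deficiency and 2.48, 2.24 and 3.47 FPKM in the control (adjusted p = 0.058). In both genes P and K deficiency lay above the control, and P deficiency was the higher. LOC100286117 missed the threshold without K deficiency replicates 4_6 (0.074) or 7_9 (0.089) or P deficiency replicates 1_3 (0.060) or 7_9 (0.068).

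Most ribosomal protein and histone genes had a difference above 0, but few passed. Of 285 ribosomal protein genes, 265 had a difference above 0 and the median was 0.51 on the log2 scale, but 4 were higher (1.40%, against 2.46%) and 1 was lower. Of 34 histone genes, 29 had a difference above 0 and the median was 0.57, with 3 higher (8.82%, against 2.46%) and none lower. The histone H4 gene H4C14 read 377, 249 and 403 FPKM in P deficiency and 182, 172 and 169 FPKM in K deficiency (adjusted p = 0.042, and 0.055 with the replicate labels as a block). P deficiency replicate 4_6 was the lowest of the P libraries. Without that library 131 ribosomal and 19 histone genes were higher, and without any other single library none of either list was. With all 6 libraries, voom on the recovered reads gave 33 higher ribosomal and 17 higher histone genes. IDP148, the centromeric histone H3, read 13.7, 13.8 and 14.7 FPKM against 9.67, 9.24 and 9.82 FPKM (adjusted p = 0.041, 0.072 with the block, 0.070 with all 12 libraries in the fit, and 0.052 to 0.136 without each library in turn). H4C14 missed the threshold without each library other than P deficiency replicate 4_6 (0.093 to 0.131). Histone and ribosomal genes exist in many near-identical copies, and reads could be split between them.

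The remaining lists had few calls, again against 2.46% of all genes higher and 4.53% lower. Of 43 glutathione transferases 3 were higher (6.98%) and 1 was lower (2.33%), the lower being gst19 at 12.8, 16.2 and 12.7 FPKM in P and 40.9, 30.3 and 45.8 FPKM in K deficiency (adjusted p = 0.0098), which passed under every alternative. Of 38 nodulins and blue copper proteins 4 were higher (10.5%) and 2 were lower (5.26%), and the copper protein LOC100283202 read 18.5, 28.1 and 27.2 FPKM against 87.9, 98.2 and 90.2 FPKM (adjusted p = 0.0038). Of 48 expansins and xyloglucan enzymes, which loosen cell walls, 2 were higher and 2 were lower (4.17% each), and among the lower was xet1 at 27.6, 22.0 and 26.8 FPKM against 88.2, 51.5 and 89.1 FPKM (adjusted p = 0.016, and 0.056 to 0.065 without K deficiency replicates 1_3 or 7_9 or P deficiency replicate 7_9). Defence genes gave 2 higher and 3 lower of 45 (4.44% and 6.67%). The endochitinase LOC100283098 read 47.5, 35.2 and 43.4 FPKM against 80.5, 96.7 and 87.5 FPKM, with 386, 302 and 228 FPKM in the control (adjusted p = 0.014, 0.061 and 0.055 without K or P deficiency replicate 7_9, and 0.092 with all 12 libraries in the fit). In terpenoid and benzoxazinoid synthesis 1 of 12 was lower (8.33%), bx1, which makes the indole that maize turns into its defence benzoxazinoids. It read 31.6, 49.1 and 74.8 FPKM in P and 180, 194 and 116 FPKM in K deficiency (adjusted p = 0.032, and 0.059 with the replicate labels as a block), and missed the threshold without any of the K libraries or P deficiency replicate 1_3 (0.062 to 0.093). None of 15 photosynthesis genes and none of 4 genes of seed storage and oil bodies passed in either direction.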

How the data were processed

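Gene expression was measured by RNA sequencing of total RNA from maize roots. The authors deposited one FPKM value per gene and library, and per the file headers also a read count normalised to library size and averaged over the 3 libraries of a group, which is used here as a signal. The sources used here name no aligner, genome build or strand setting, so no coordinates or sequences are printed. Whole reads per library were recovered from those group means and the FPKM values and served for depth and for 1 alternative fit. No column of the tables was left unmatched to a sample or group.

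FPKM values were tested as log2(FPKM + 1) with limma 3.58.1 in R 4.3.3, with the intensity trend, on the 6 libraries with group as the only term. Genes needed an FPKM of at least 0.5 in 3 libraries, and p-values were adjusted by Benjamini-Hochberg over all 23486 tested genes, with 0.05 as the threshold. Log2 differences are on that scale and understate low genes, while fold values are ratios of mean FPKM. The procedure was tested on simulated data. Descriptions were present for 52.6% of genes, and lists were built from them, so a list misses undescribed members.

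Named genes were the 15 with the largest difference each way among called genes. To be among these 15, a gene needed a description, a mean FPKM of at least 10 and no overlap between P and K libraries. Further named genes were every called member of the nutrient lists and the 2 members with the smallest p of each other list. The members and lists were chosen with earlier results of these data known.

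Libraries with the same replicate label deviated together from their group means across genes (correlation 0.207 for 1_3, 0.151 for 4_6 and 0.110 for 7_9), so a fit with the label as a block was run. Only 3 of the 6 libraries correlated best with the like-labelled library of the other group. The pairing comes from the values, since the labels do not say what the numbers mark. Other alternatives changed the samples, filter, pseudocount, scaling or threshold, or left out 1 library at a time.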

Additional observations from a re-analysis of the deposited data

How the results depend on the processing

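With all 6 libraries 1642 genes passed, 578 higher and 1064 lower in P deficiency. Leaving out 1 library gave 307 to 2412 genes, with 81 to 1086 higher and 226 to 1326 lower, the fewest without K deficiency replicate 7_9 and the most without P deficiency replicate 4_6. With the replicate block 1219 genes passed, 534 higher and 685 lower. Of 101 named genes that passed, 20 missed the threshold under the block. Their blocked values stand beside them where they are named, and the block ended no other call among the named genes. Without the filter on low values 1076 genes passed, 342 higher and 734 lower. A threshold of 0.01 left 243 genes, 52 higher and 191 lower, and a required log2 difference of at least 1 left 779, 285 higher and 494 lower. Voom on the recovered reads, chosen after seeing the data, gave 2801 genes, 1142 higher and 1659 lower. The cause of these shifts was not tested. The counts over all genes under the other pseudocounts, scalings and filter and with all 12 libraries in 1 fit stayed within 1.5 times, while counts of single lists moved by more where the text says so. No named gene that passed changed sign in a fit that tested it, and 14 of the named genes lost the call without the filter and 8 with all 12 libraries. The call was lost by 3 at a pseudocount of 0.1, 2 at a pseudocount of 10, 3 under median-ratio and 1 under upper-quartile scaling. Without the intensity trend 2 lost it, and with voom 3 did. LOC100193758, LOC100281536 and LOC100193569 each lost it in more than 1 of these fits. Precision is limited by 3 libraries a group, and genes near 1 FPKM rest on few reads.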
